A study of Rattus norvegicus with 241 samples.

Results

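TNFSF11, TNFRSF11A and TNFRSF11B encode the ligand RANKL, its receptor RANK and the secreted decoy receptor osteoprotegerin (OPG). The 3 genes were chosen by symbol, ignoring case, among 16820 genes in the bulk tables of rat mammary cells. TNFRSF11A and TNFRSF11B, 2 of the 3, were measured in all 202 bulk samples and 39 single-cell tables, and TNFSF11 was not analysed here.

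In the mammary gland RANKL is a paracrine signal. Luminal cells that carry hormone receptors make it in response to progesterone and prolactin, and neighbouring luminal progenitors and basal cells that carry RANK respond by growing. RANK has no enzyme activity and signals through TRAF adaptors to NF-kB. OPG binds RANKL outside the cell and keeps it from RANK. Outside the epithelium RANK is best known from dendritic cells and from the precursors of bone-resorbing osteoclasts.

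The study asked how a short course of the TGFβ receptor inhibitor LY2157299 (TGFBRi) alters the mammary gland of female rats and its tumors. TGFBRi was given by oral gavage at 75 mg per kg, 2 times a day, and control rats received the vehicle. Young ACI rats, an inbred strain that forms mammary tumors under estradiol, were dosed for 10 days from an age of 35 days and sampled 0, 7 or 14 days after the last dose, with 3 rats per group. Young SD rats, an outbred strain, were dosed for 10 days from day 24 and sampled at day 0, with 4 rats per group. Adult ACI rats of 18 to 24 weeks were virgin or parous, were dosed for 10 days and were sampled at day 0, with 2 to 4 rats per group. A further set of SD rats was dosed for 10 days from day 21 and received a single injection of the carcinogen N-nitroso-N-methylurea (NMU). It was sampled as tumor-bearing vehicle, tumor-free TGFBRi or tumor-bearing TGFBRi rats, 3 of each. From these rats 6 tumors were sorted too, and all samples were taken 87 days after the injection. In the E2 experiment ACI rats carried a slow-release 17β-estradiol (E2) or an empty pellet, and TGFBRi was given for 21 days from day 38, with sampling at the end of the tumor experiment. Its E2 vehicle rats all bore tumors and its rats with the empty pellet were all tumor-free, so E2 and tumors cannot be told apart among vehicle rats. Its TGFBRi rats with E2 were tumor-free (4 rats) or tumor-bearing (2 rats), and its other groups had 3 or 4 rats. Cells were sorted as CD24+CD29high basal, CD24+CD29low luminal and CD45+ leukocyte fractions, and tumors as EPCAM+ and CD45+ cells. Single cells were taken from basal and luminal sorts of 6 young ACI rats (3 of each treatment) and 9 young SD rats (3 vehicle, 6 TGFBRi), and from whole glands of 9 other SD rats (3 vehicle, 6 TGFBRi), all at day 0.

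The bulk samples held 4194912 to 52314784 reads on genes and the 3 single-cell sets 16762, 39766 and 103524 cells. Depth limits low values: TNFRSF11B in luminal sorts and in luminal cells rested on few or no reads or UMIs in many samples. Sorts were not pure. Fibroblast marker RNA, summed over 6 genes, reached 56927 reads-per-million (RPM) in young SD basal sorts and 88522 in young ACI CD45+ sorts. Tumor EPCAM+ sorts held 9730 to 78038 RPM of it, against 2412 to 15432 of luminal epithelial markers. In 1 young ACI vehicle rat of day 7 the labels conflict on treatment, and it was taken as vehicle after its treatment tag.

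RANK was an epithelial gene in the bulk sorts of young and adult glands, at similar levels in basal and luminal cells and lower in leukocytes. In the 9 young ACI vehicle rats TNFRSF11A was at 131 ± 70 counts-per-million (CPM, SD) in basal, 111 ± 47.4 in luminal and 36.3 ± 12.8 in CD45+ cells. Basal and luminal values ran from 22.1 to 202 and from 24.9 to 156 and overlapped almost fully. The basal minus luminal difference on the log2 CPM scale was 0.13 ± 0.26 (SE) in young ACI, -0.52 ± 0.37 in young SD and 0.32 ± 0.47 in adult ACI vehicle rats. None of these 3 was called at an adjusted p of 0.05 by limma, where 35.6%, 42.7% and 48.7% of all genes were called.

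In vehicle rats after NMU the pattern differed in level. TNFRSF11A was at 117, 144 and 207 CPM in the basal sorts of the 3 tumor-bearing vehicle rats and at 11.6, 17.9 and 103.9 CPM in their luminal sorts. The groups did not overlap, and the difference of 2.44 ± 0.52 on the log2 scale was called (adjusted p = 0.0011, limma, 23.2% of genes called). In tumor-bearing TGFBRi rats after NMU the basal and luminal means were 152 and 154 CPM. In tumor-free TGFBRi rats they were 168 and 93.6, and neither pair was tested.

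**Figure D1:**
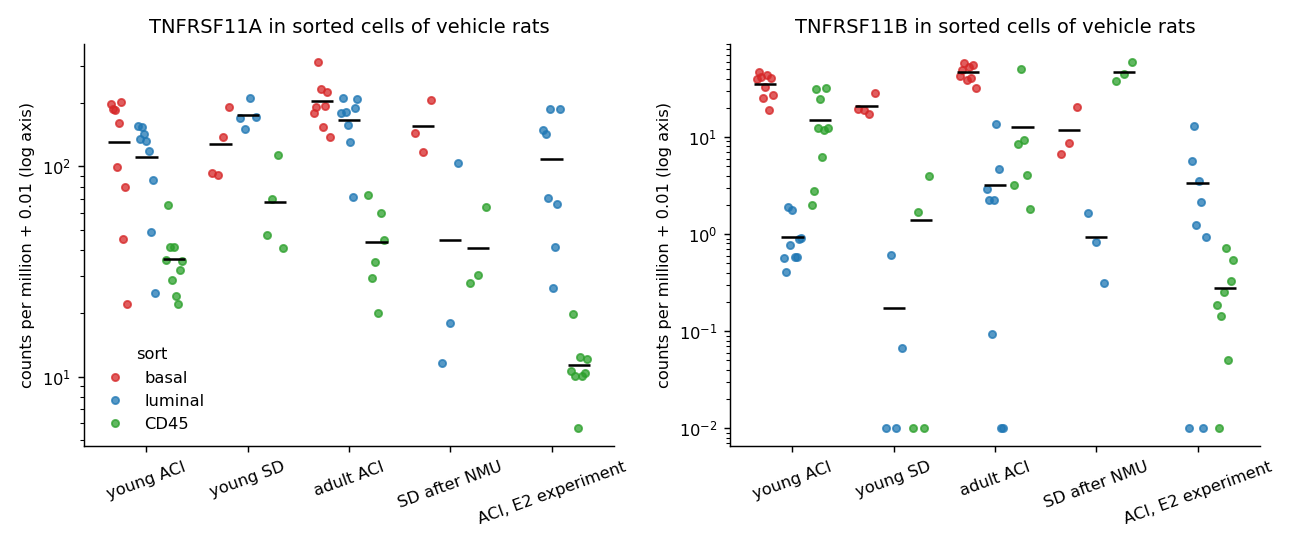
CPM of TNFRSF11A (left) and TNFRSF11B (right) in basal, luminal and CD45+ sorts of vehicle rats, 1 point per rat, on a log axis with 0.01 added, and black bars are means. TNFRSF11A points of basal and luminal sorts overlap in young and adult glands, whereas TNFRSF11B is at 35.1 CPM in young ACI basal sorts and 0.922 in luminal sorts.

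Outside the NMU glands, leukocyte sorts held less TNFRSF11A than luminal sorts. The CD45+ minus luminal difference was -1.49 in young ACI (adjusted p = 4.21e-06), -1.48 in young SD and -1.93 in adult ACI rats, and -3.03 in the E2 experiment, all called by limma. The share of all genes called was 50.5%, 34%, 51.6% and 65.8%. In the NMU glands the difference was 0.44 and was not called, with 32.4% of genes called. With 1 rat left out it ran from 0.03 to 1.09 and was called in 1 of 3 fits (limma adjusted p = 0.0418). Luminal epithelial markers summed to 26.2 to 10438 RPM in the CD45+ sorts, and their part in the TNFRSF11A values was not tested. In bulk samples, fewer cells of a type and less RNA per cell cannot be told apart.

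Within the epithelium OPG followed the basal cells. In young ACI vehicle rats TNFRSF11B was at 19.1 to 46.4 CPM in the 9 basal sorts and at 0.399 to 1.88 in the 9 luminal sorts, so every basal sample was above every luminal one. The basal minus luminal difference was 5.29 ± 0.56 in young ACI, 7.29 ± 1.13 in young SD, 5.81 ± 0.92 in adult ACI and 3.70 ± 1.11 in NMU rats, and it was called by limma in all 4 (adjusted p from 1.99e-10 to 0.0149). In NMU rats, with 3 vehicle rats, the call was lost when rat 2 or rat 3 was left out (adjusted p = 0.0930 and 0.189). Fibroblast markers were also present in the basal sorts, and their part in the TNFRSF11B values was not tested. In young ACI rats the basal sample with the lowest fibroblast sum (517 RPM) had 10.7 RPM of TNFRSF11B, the least of the 18 samples, and the one with the highest (32972) had 39.9. In adult ACI rats the basal sample with the lowest fibroblast sum (416 RPM) had 54.6 RPM of TNFRSF11B and the one with the highest (5448) had 91.6. In young SD basal sorts the lowest and the highest fibroblast sums, 17010 and 56927, came with 23 and 23.1 RPM of TNFRSF11B. In NMU basal sorts the lowest sum (1634) came with 22.6 RPM of TNFRSF11B and the highest (10982) with 15.3.

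CD45+ sorts carried TNFRSF11B in an uneven way. It was above luminal sorts by 3.60 in young ACI, 5.83 in NMU and 2.97 in adult ACI rats, all called by limma, although edgeR did not call the adult difference (adjusted p = 0.0541) and limma lost it without rat 7 or rat 8 of the 8 adult vehicle rats (adjusted p = 0.0643 and 0.0775). In young SD rats the difference of 1.62 was not called by limma (adjusted p = 0.293) or edgeR (0.0704) but was by DESeq2 (0.0218), and without rat 4 it was 0.47. In the E2 experiment it pointed the other way (-2.22), not called by limma (adjusted p = 0.0541) and called by edgeR (0.00167) and DESeq2 (3.1e-05). In NMU vehicle rats TNFRSF11B was at 38.0 to 58.9 CPM in CD45+ sorts, above all basal sorts at 6.69 to 20.2, and this was not tested. Fibroblast marker sums are given beside the levels. In the E2 experiment TNFRSF11B had a median of 0.272 RPM beside fibroblast sums of 2.39 to 266, and in NMU rats a median of 41.7 beside sums of 6960 to 27573. In young SD rats it had a median of 1.22 beside sums of 6750 to 42665. The part of fibroblast RNA in these values was not tested.

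Single-cell sorts of the same fractions gave the same order for OPG. TNFRSF11B was higher in basal than in luminal sorts by 7.37 in ACI vehicle rats, 5.72 in ACI TGFBRi rats, 7.6 in SD vehicle rats and 5.47 in SD TGFBRi rats, on the log2 scale (edgeR on UMIs summed per rat, called at an adjusted p of 0.1 or less; highest 2.36e-08). TNFRSF11A was higher in ACI basal than luminal sorts by 0.93 and 1.14 in vehicle and TGFBRi rats, both called. In SD rats it differed by 0.09 and 0.40, neither called. The percentages of all genes called in these 4 comparisons were 65.2%, 65.7%, 41.6% and 57.1%, so a call alone was common.

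Clustering of the single cells, named from fixed markers, resolved which cells carry each gene. RANK RNA was concentrated in basal-like and luminal progenitor-like cells within the epithelium and was lower on average in mature luminal-like cells, the class that holds hormone receptors. In sorted ACI cells TNFRSF11A was at 1.67 ± 0.30 UMIs per 10000 (mean ± SD over 6 rats) in basal-like, 1.38 ± 0.33 in luminal progenitor-like and 0.0988 ± 0.019 in mature luminal-like cells. The first 2 ranges overlapped, and both lay above the third. In sorted SD cells the values over 9 rats were 1.05 ± 0.24 in luminal progenitor-like, 0.819 ± 0.343 in basal-like and 0.149 ± 0.078 in mature luminal-like cells. Mature luminal-like cells of sorted SD rats were uneven. A cluster of 1303 of them, with a median of 15560 UMIs per cell, held 0.405 UMIs per 10000 of TNFRSF11A and a UMI in 42.3% of cells, and the clusters of 3944 and 2138 cells, with medians of 9440 and 8764, held 0.0548 and 0.0869. These are descriptions of level and were not tested.

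In whole glands, which hold stroma and immune cells, the highest level among the named classes was in dendritic-like cells, at 1.78 ± 0.37 UMIs per 10000 over 9 rats. Lymphatic endothelium-like cells followed at 0.717 ± 0.344, luminal progenitor-like cells at 0.499 ± 0.300 and basal-like cells at 0.362 ± 0.210. Each class overlapped its neighbour in this order. These means pool 3 vehicle and 6 TGFBRi rats, and the effect of treatment is given below. Among vehicle rats lymphatic endothelium-like cells were at 0.240 to 0.653, luminal progenitor-like cells at 0.115 to 0.165 and basal-like cells at 0.114 to 0.171. Endothelium-like cells of vehicle rats were at 0.109 to 0.204, so these epithelial classes did not stand above them without TGFBRi. An unnamed cluster of 878 cells led by IL22, IL2RA, CXCR6, IL23R and RORA held 2.00 UMIs per 10000. B cell-like cells, which serve as the background of free RNA, had a TNFRSF11A UMI in 0.0511% of cells at a median of 2287 UMIs, against 50.7% of dendritic-like cells at 5135 and 30.3% of luminal progenitor-like cells at 8017. Intervals and shares of this kind cover counting error only.

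**Figure D2:**
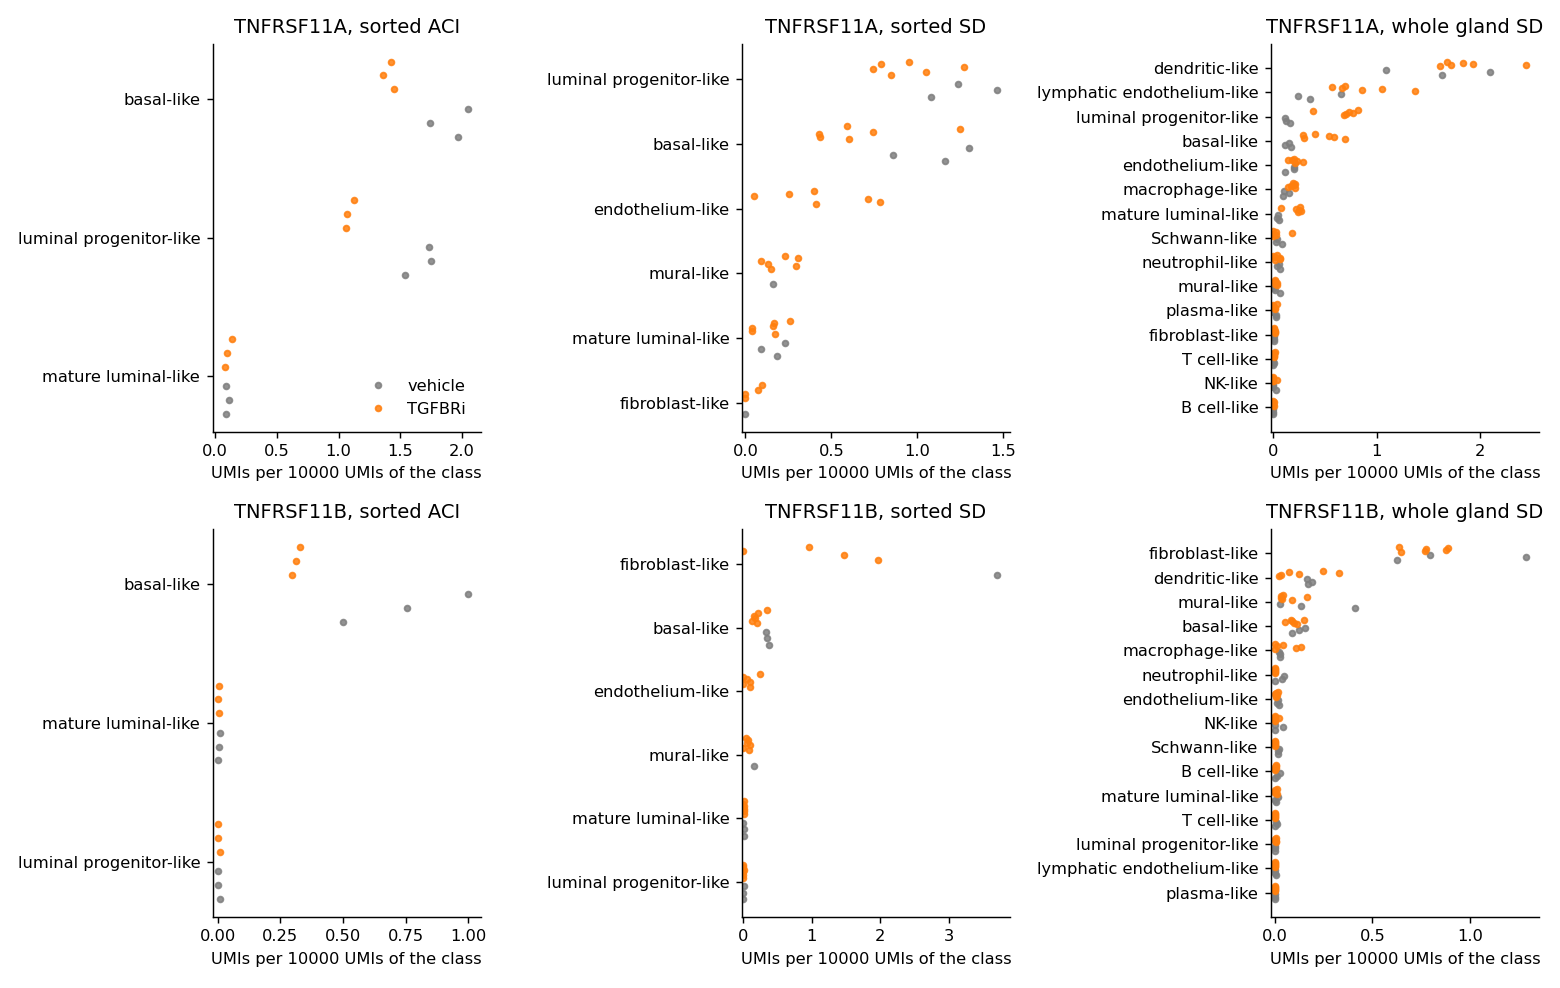
TNFRSF11A (top) and TNFRSF11B (bottom) UMIs per 10000 UMIs of each cell class, 1 point per rat with at least 10 cells, in sorted ACI, sorted SD and whole gland SD cells, by treatment. TNFRSF11A is highest in whole glands in dendritic-like cells (1.78) and TNFRSF11B in fibroblast-like cells (0.811).

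OPG RNA in whole glands was a fibroblast transcript first. TNFRSF11B was at 0.811 ± 0.205 UMIs per 10000 in fibroblast-like cells, and the lowest rat of that class (0.624) was above the highest rat of every other class. Within the class it was uneven. A cluster of 2763 fibroblast-like cells led by MFAP5, FNDC1, FBN1, DPP4 and PI16 held 2.41 UMIs per 10000 and a TNFRSF11B UMI in 62.9% of its cells. The larger cluster of 7794 cells held 0.232, with a UMI in 7.61% of cells. Dendritic-like cells followed at 0.149 ± 0.101 and mural-like cells at 0.105 ± 0.124. Basal-like cells held 0.105 ± 0.034 and luminal progenitor-like cells 0.00147 ± 0.0017, which was below the 0.00519 of B cell-like cells and is read as background. In sorted ACI cells, where few fibroblasts were kept, basal-like cells held 0.532 and luminal progenitor-like cells 0.00273. In sorted SD cells fibroblast-like cells held 1.62 ± 1.37 over 5 rats and basal-like cells 0.251 over 9. Basal-like cells thus held UMIs of both genes, and luminal progenitor-like cells mainly those of the receptor.

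In whole glands of SD rats TNFRSF11A was higher after TGFBRi in all 3 epithelial classes. In luminal progenitor-like cells the 3 vehicle rats were at 0.165, 0.123 and 0.115 UMIs per 10000 and the 6 TGFBRi rats at 0.682, 0.736, 0.380, 0.816, 0.706 and 0.769. The lowest treated rat was above the highest vehicle rat. The log2 difference was 2.17, or 4.49-fold (edgeR adjusted p = 0.000963, SE 0.30 from DESeq2, 27.7% of genes called).

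In basal-like cells TNFRSF11A of the vehicle rats was at 0.171, 0.114 and 0.155 and of the TGFBRi rats at 0.699, 0.542, 0.285, 0.402, 0.295 and 0.592. The groups again did not overlap, and the difference was 1.72 (adjusted p = 0.00217, SE 0.32), in a comparison with 43.6% of genes called. In mature luminal-like cells the vehicle rats were at 0.0530, 0.0369 and 0.0506 and the TGFBRi rats at 0.239, 0.220, 0.0753, 0.255, 0.2701 and 0.249, a difference of 2.11 (adjusted p = 0.00356, SE 0.35, 29.2% of genes called). The rise in these 3 classes was called under every alternative tried, with values of 1.53 to 2.47 and adjusted p up to 0.0182. The median gene moved by 0.09, 0.05 and 0.03.

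Depth differed between the groups. Luminal progenitor-like cells had median UMI counts of 4830 to 9481 per vehicle rat and 6316 to 13608 per TGFBRi rat. Cells of at least 2000 UMIs were thinned to 2000. A TNFRSF11A UMI was then present in 1.67 to 3.30% of such luminal progenitor-like cells of vehicle rats and 7.70 to 14.5% of TGFBRi rats (unthinned, all cells, 6.35 to 11.8% and 29.6 to 55.2%). Shallower cells were left out, 243 vehicle and 339 TGFBRi cells in this class. In basal-like cells these were 650 and 707, and in mature luminal-like cells 380 and 457. The thinned shares were 2.15 to 3.73% and 5.86 to 11.9% in basal-like cells. In mature luminal-like cells they were 0.578 to 0.806% and 0.769 to 4.81%, and overlapped. All luminal progenitor-like cells fell in a single cluster. Mature luminal-like cells fell in 2 clusters, and TNFRSF11A was at 0.0822 with TGFBRi against 0.0256 with vehicle in the larger and 0.321 against 0.0666 in the smaller, whose cells had a median of 20110 UMIs against 7674. Basal-like cells did not: 79.5% of vehicle cells were in 1 cluster and 81.4% of TGFBRi cells in another, and TNFRSF11A was higher with TGFBRi inside each (0.289 against 0.149 and 0.477 against 0.283 UMIs per 10000).

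Of the other whole gland classes tested, lymphatic endothelium-like cells alone gave a call by edgeR. Unnamed whole gland cells were not tested. Their TNFRSF11A was at 0.118 to 0.213 UMIs per 10000 in vehicle and 0.260 to 0.407 in TGFBRi rats, with no overlap. These cells pool 8 unlike clusters, and 612 of their 992 TNFRSF11A UMIs came from the cluster led by IL22. The part of cell composition in this difference was not tested. In T cell-like and B cell-like cells, at or near the background, the differences were 1.88 and 3.99 and were not called (adjusted p = 0.178 and 0.183, beside 8.06% and 17.3% of genes called), with B cell-like cells at 0 in vehicle and 0.00286 UMIs per 10000 in TGFBRi rats. In lymphatic endothelium-like cells TNFRSF11A was at 0.355, 0.240 and 0.653 in vehicle and 0.568 to 1.37 in TGFBRi rats, a difference of 0.93 (adjusted p = 0.0693, 16% of genes called). That call was lost when either of 2 vehicle rats or 1 TGFBRi rat was left out. In dendritic-like cells, with the highest level, the difference was 0.20 (adjusted p = 0.666, SE 0.21), and 5% of genes were called. ZCCHC2, whose RefSeq entry carries an older synonym shared with RANK, did not follow it: its differences in basal-like, luminal progenitor-like and mature luminal-like cells were 0.05, -0.01 and 0.05 (adjusted p = 0.869, 0.984 and 0.864).

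**Figure D3:**
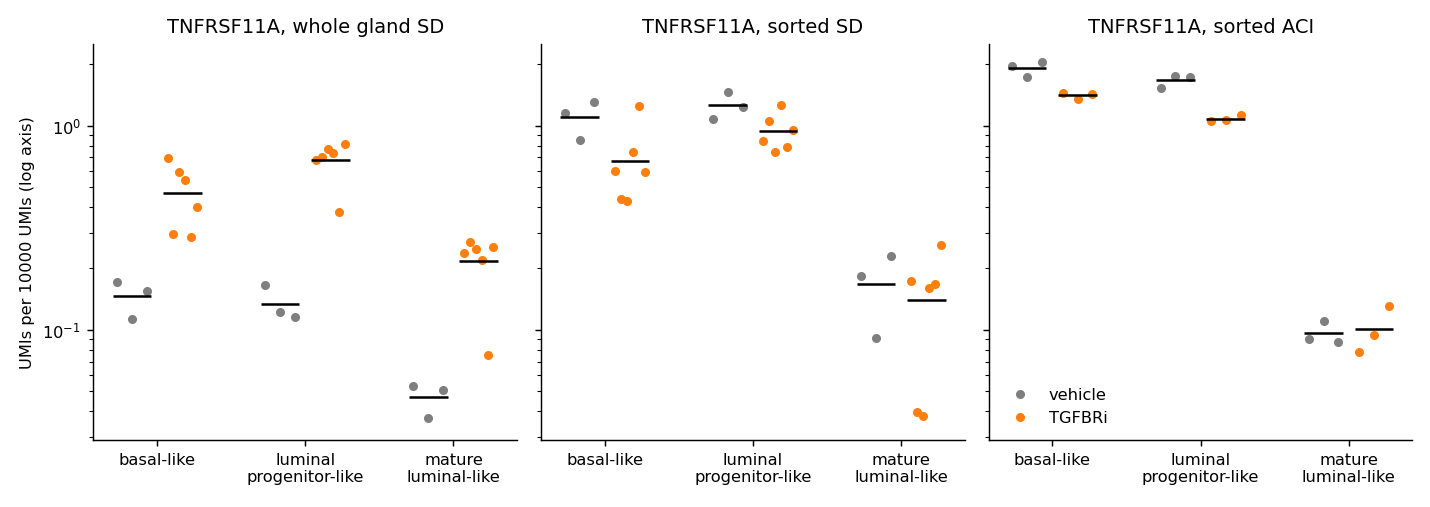
TNFRSF11A UMIs per 10000 UMIs (log axis) in the 3 epithelial classes of whole gland SD, sorted SD and sorted ACI cells, 1 point per rat, and black bars are means. TGFBRi rats lie above vehicle rats in whole glands, at 0.380 to 0.816 against 0.115 to 0.165 in luminal progenitor-like cells, and below or among them in the basal-like and luminal progenitor-like cells of the sorts.

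In sorted cells TNFRSF11A was called lower in SD luminal sorts and in ACI luminal progenitor-like cells, and was not called in the other sorts and epithelial classes. With 1 rat left out, basal-like cells gained a call in 1 of 6 ACI and 1 of 9 SD fits (edgeR adjusted p = 0.0851 and 0.0561). In SD luminal sorts TNFRSF11A was at 0.700, 1.16 and 0.828 UMIs per 10000 in vehicle and 0.348 to 0.681 in TGFBRi rats, with no overlap, a log2 difference of -0.59 (adjusted p = 0.0813, 31.8% of genes called), and the call was lost when any of 6 of the 9 rats was left out. In ACI luminal sorts it was at 0.685 to 1.21 and 0.527 to 0.683, and the difference of -0.30 was not called (25% of genes called). In ACI luminal progenitor-like cells it was at 1.54, 1.75 and 1.74 in vehicle and 1.06, 1.07 and 1.12 in TGFBRi rats. The difference after scaling by the trimmed mean of M-values (TMM) was -0.30 (adjusted p = 0.0495, 30.8% of genes called), and DESeq2 did not call it (adjusted p = 0.123). The call was also lost when any of 4 of the 6 rats was left out (adjusted p up to 0.19). In SD luminal progenitor-like cells the difference was -0.07 (17.9% of genes called) and in mature luminal-like cells 0.01 (27.5%), where cluster 10 held 71.8% of vehicle cells and cluster 9 held 67.3% of TGFBRi cells. The sorted SD luminal progenitor-like class held 68.4 to 78.9% of luminal sort cells in vehicle rats but 0.389, 1.85, 2.98 and 12.2% in 4 of the 6 TGFBRi rats (15, 50, 88 and 275 cells), whose luminal sort cells were 35.8 to 73.9% in unnamed clusters, beside 1.15 to 3.61% in vehicle rats. TNFRSF11A of unnamed cells was at 0.705 to 1.27 UMIs per 10000 in vehicle and 0.360 to 0.754 in TGFBRi rats. The milk protein gene CSN2 was among the leading genes of unnamed clusters 16 and 12, at 0.634 and 0.527 UMIs per 10000 of TNFRSF11A. It also led the luminal progenitor-like cluster of whole glands. The -0.07 thus covers the named class only and leaves these milk gene clusters out. Within the class cluster 15 held 84.1% of vehicle cells and cluster 14 held 83.5% of TGFBRi cells. In both sorted strains TNFRSF11A of basal sorts was not called, at -0.11 in ACI and -0.34 in SD rats. A single SD TGFBRi rat stood apart there at 1.20 against 0.404 to 0.584 in the other 5, and without it the SD difference was -0.71 (adjusted p = 0.0444). This was the call of 1 in 9 edgeR fits with 1 rat left out, with adjusted p up to 0.848. The scale bears on these values: with total UMIs in place of TMM, a choice made after the data were seen, the median gene of the sorted comparisons moved by -0.23 to -0.37. On that scale TNFRSF11A was at -0.63 in ACI luminal progenitor-like cells (adjusted p = 0.000275), -0.58 in ACI luminal sorts (0.0629), -0.34 in ACI basal sorts (0.0113) and -0.45 in ACI basal-like cells (0.00224), all called. In SD cells it was at -0.94 in luminal sorts (adjusted p = 0.0216, called) and, not called, at -0.76 in basal sorts (0.109) and -0.72 in basal-like cells (0.104).

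The effect of TGFBRi differed between whole gland and sorted SD cells by test, in comparisons added after the data were seen. The whole gland effect minus the sorted effect was 1.95 in basal-like cells (adjusted p = 0.00625, 37.5% of genes called), 2.22 in luminal progenitor-like cells (adjusted p = 0.000561; 18.2%) and 2.08 in mature luminal-like cells (adjusted p = 0.0565; 27.9%). The last call was lost when any of 4 rats was left out in turn, with adjusted p up to 0.142. The 2 sets also differ in rats, cell preparation and library chemistry (5′ against 3′), and these cannot be told apart. The sorted luminal progenitor-like class held 0.389 to 12.2% of luminal sort cells in 4 of the 6 TGFBRi rats, as given above. Unnamed sorted clusters with CSN2 among their leading genes were left out of it, whereas CSN2 led the whole gland class. The 2.22 thus compares classes that are not drawn alike. Vehicle rats were far apart between the sets, at 0.115 to 0.165 UMIs per 10000 in whole gland and 1.08 to 1.47 in sorted luminal progenitor-like cells.

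In the single-cell data OPG was lower in whole basal sorts after TGFBRi and in the ACI cells named basal-like. Values of the ACI cells left unnamed overlapped. The bulk basal sorts of young rats, given below, gave no call for it in either strain. In ACI basal sorts TNFRSF11B was at 0.450, 0.678 and 0.798 UMIs per 10000 in vehicle and 0.334, 0.330 and 0.393 in TGFBRi rats, a difference of -0.63 (adjusted p = 0.0583, 33% of genes called). In SD basal sorts it was at 0.375, 0.568 and 0.365 and at 0.198, 0.157, 0.199, 0.128, 0.207 and 0.344, a difference of -0.70 (adjusted p = 0.0957; 24.7%). The vehicle rat at 0.568 had 2.75% fibroblast-like cells in its basal sort, against 0.159 and 0.392% in the other vehicle rats, and the TGFBRi rat at 0.128 had 39.96% endothelium-like cells. Their part in the difference was not tested. Neither pair of groups overlapped, and the calls were lost when any of 4 of the 6 ACI rats or 7 of the 9 SD rats was left out. Within ACI basal-like cells the difference was -1.03 (adjusted p = 0.0109, 37% of genes called), from 0.501, 0.756 and 0.9988 to 0.296, 0.312 and 0.327. Most vehicle and TGFBRi cells of that class were in different clusters: those with 41.9% and 55.6% of the vehicle cells held 3.89% and 4.29% of the TGFBRi cells, and inside them TNFRSF11B was at 0.467 and 0.952 in vehicle and 0.224 and 0.562 in TGFBRi cells. TNFRSF11B was itself among the leading genes of the second of these clusters, and it was not removed before clustering. The class difference is therefore not independent of how the cells were grouped. Unnamed clusters held 16.8 to 21.5% of ACI basal sort cells in vehicle and 36.5 to 51.1% in TGFBRi rats. TNFRSF11B of ACI unnamed cells was at 0.285 to 0.387 UMIs per 10000 in vehicle and 0.342 to 0.489 in TGFBRi rats, and this difference was not tested. Within SD basal-like cells the difference of -0.38 was not called (29.9% of genes called). With total UMIs as the scale it was -0.78 and was called (adjusted p = 0.0535), where the median gene moved by -0.35. Without TGFBRi rat 6 it was -0.55 (adjusted p = 0.0972), the call of 1 in 9 edgeR fits with 1 rat left out (adjusted p up to 0.513). In whole glands TNFRSF11B was not called in basal-like (-0.23) or fibroblast-like cells (-0.43, adjusted p = 0.151, 29.2% of genes called), where vehicle rats were at 0.624, 1.29 and 0.794 and TGFBRi rats at 0.635 to 0.887. Without vehicle rat 1 the fibroblast-like difference was -0.68 (adjusted p = 0.0257). Over all alternatives tried, by edgeR or DESeq2, it ran from -0.68 to -0.16, with adjusted p up to 0.661. The cluster with more TNFRSF11B held 27.9% of vehicle and 24.8% of TGFBRi fibroblast-like cells, at 2.39 and 2.42 UMIs per 10000, and the other cluster was at 0.313 and 0.168. A single rat gave 70% of the vehicle cells of the first.

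In bulk sorts no treatment comparison called either gene. Over 32 comparisons of TGFBRi with vehicle the log2 difference of the normalized count + 1 ran from -2.04 to 2.38 for TNFRSF11A and from -3.15 to 2.74 for TNFRSF11B, with smallest adjusted p of 0.0827 and 0.17 (limma). Some of the 32 comparisons share vehicle rats. DESeq2 called 1 and 0, and edgeR none. Few genes of any kind were called, from 0 to 8.73% per comparison.

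In young ACI rats at day 0 luminal TNFRSF11A was at 2397, 2220 and 2514 normalized counts in vehicle and 1640, 1244 and 1299 in TGFBRi luminal sorts, a difference of -0.78 ± 0.42 (adjusted p = 0.330, 1.01% of genes called). The groups did not overlap, and with the spread taken from these 6 samples alone it was called (adjusted p = 0.009). Luminal TNFRSF11B was at 8.62, 6.56 and 30.7 in vehicle and 78.2, 56.8 and 22.1 in TGFBRi sorts, a difference of 1.84 ± 0.71 (adjusted p = 0.17). Without TGFBRi rat 3 it was 2.36 and was called (adjusted p = 0.0466). Over all alternatives tried, by limma, edgeR or DESeq2, it ran from 1.44 to 2.47, with adjusted p up to 0.478. In basal sorts of these rats TNFRSF11A differed by -0.29 and TNFRSF11B by -0.08, with 3.34% of genes called. The median gene moved by 0.21 in these luminal and 0.30 in these basal sorts. In young SD rats the differences were 0.18 and 0.16 in basal and 0.20 and 0.07 in luminal sorts, where 0% of genes were called in either.

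In vehicle-treated young ACI rats TNFRSF11A values were lowest at day 7. Basal TNFRSF11A was at 3207, 3074 and 3187 at day 0, at 722, 1310 and 395 at day 7 and at 1828, 2567 and 3251 at day 14. Luminal TNFRSF11A was at 776, 1366 and 481 at day 7, against 2220 to 2514 at day 0. All day 7 samples were below all day 0 samples in both sorts. The day 7 minus day 0 difference was -2.13 ± 0.43 in basal (adjusted p = 0.056, 0.192% of genes called) and -1.57 ± 0.42 in luminal sorts (adjusted p = 0.0978, 0.685% called). DESeq2 called both (adjusted p = 0.000716 and 0.0154), while the shares of genes given here are those of limma. The rat with conflicting labels was the lowest at day 7, and without it the differences were -1.70 and -1.20. Over all alternatives tried, by limma, edgeR or DESeq2, they ran from -2.56 to -1.70 and from -1.96 to -1.20, with adjusted p up to 0.280 and 0.318. Basal TNFRSF11B was at 304, 660 and 490 at day 7 and 636 to 765 at day 0, a difference of -0.61 ± 0.39 that was not called (adjusted p = 0.567).

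**Figure D4:**
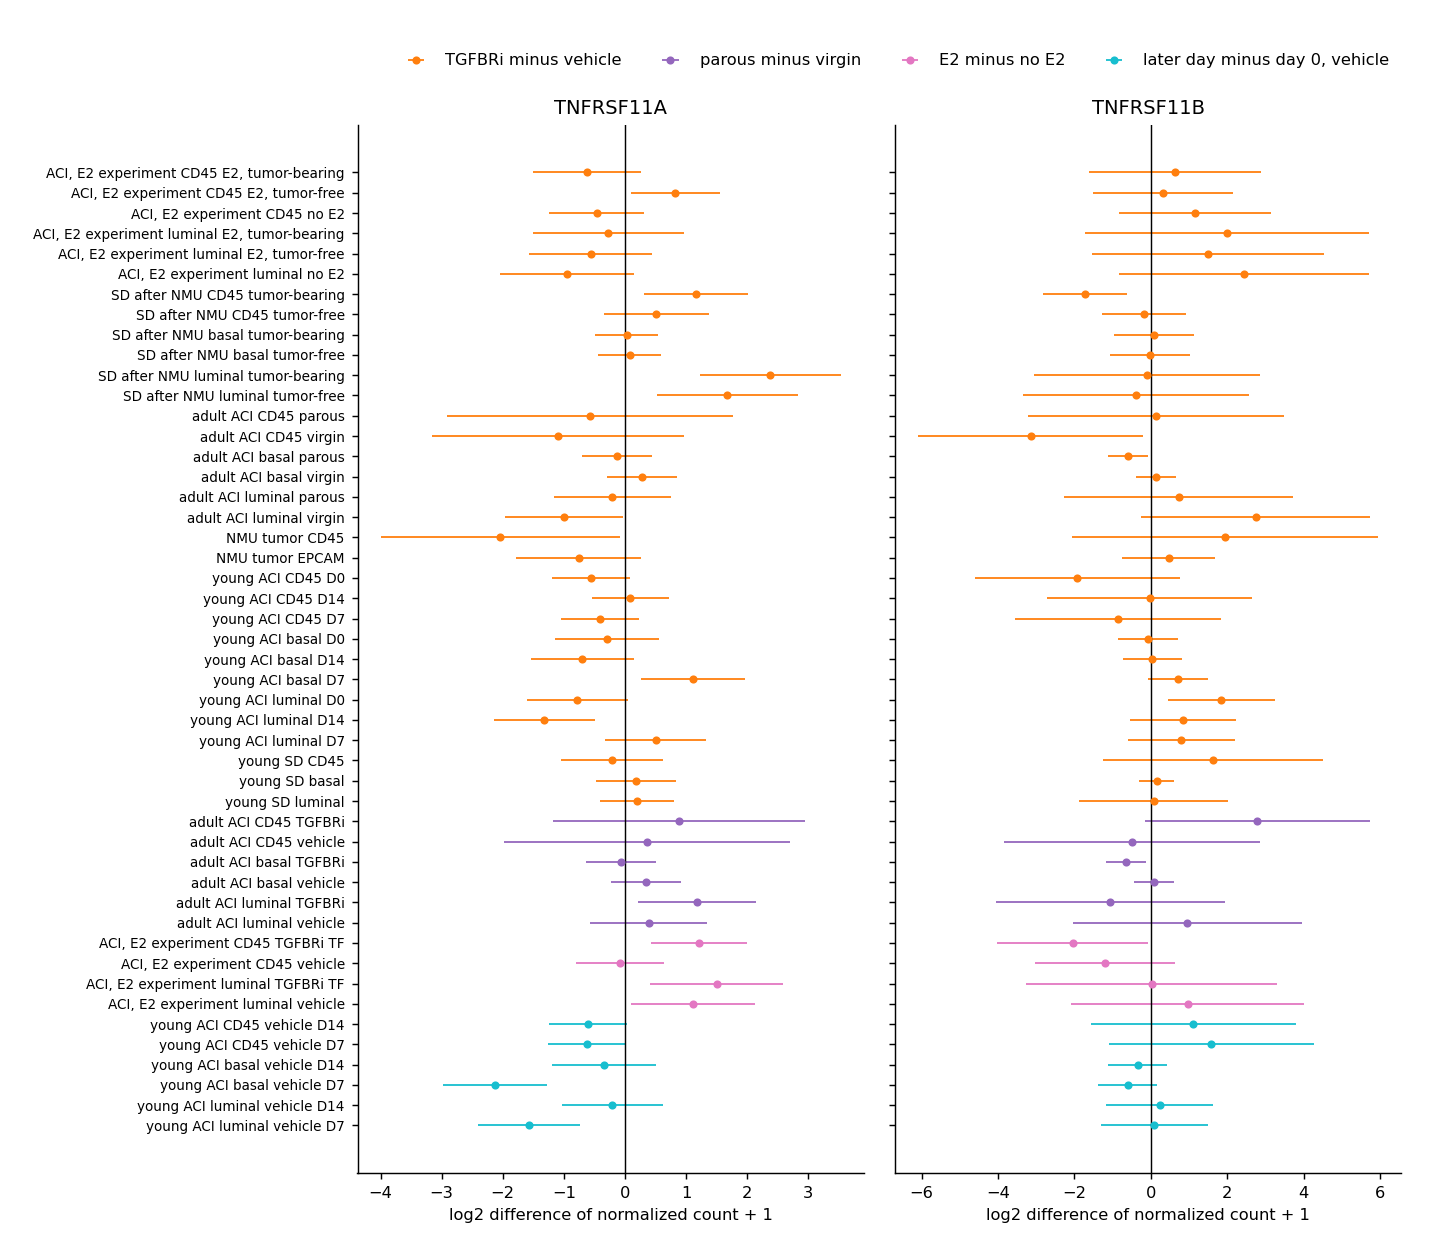
Log2 differences of the normalized count + 1 for TNFRSF11A (left) and TNFRSF11B (right) in 48 bulk comparisons of treatment, parity, E2 and day, where points are limma estimates and bars 95% confidence intervals by the normal approximation. None passed the adjusted threshold, and the lowest TNFRSF11A value of a day comparison is -2.13 at day 7 in basal sorts.

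Parity gave no call for either gene by limma. In vehicle rats basal TNFRSF11A was at 3547 to 5688 in virgin and 4648 to 7995 in parous rats (0.35 ± 0.29) and basal TNFRSF11B differed by 0.07 ± 0.27. Luminal TNFRSF11A was at 1604 to 4459 and 3534 to 4522 (0.39 ± 0.49). No gene at all was called in these comparisons (0% in basal and 0% in luminal sorts). In TGFBRi rats basal TNFRSF11B was at 744 to 1980 in virgin and 716 to 944 in parous rats, a difference of -0.65 (adjusted p = 0.114), in a comparison with 12.1% of genes called. Without virgin TGFBRi rat 3 it was -0.90 and was called (adjusted p = 0.0301). This was the call of 1 in 8 limma fits with 1 rat left out, which ran from -0.90 to -0.43 with adjusted p up to 0.284. In virgin rats the TGFBRi minus vehicle difference in basal sorts was 0.28 for TNFRSF11A and 0.12 for TNFRSF11B, neither called, with 8.73% of genes called and a median gene shift of -0.25.

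E2 gave no call for either gene by limma. In vehicle rats luminal TNFRSF11A was at 574, 928, 1470 and 3994 with the empty pellet and 3236, 3196, 1610 and 4154 with E2, and the groups overlapped (1.12 ± 0.52, adjusted p = 0.329, 1.48% of genes called). In tumor-free TGFBRi rats it was at 900, 345 and 1048 and at 1821, 2469, 1129 and 2867, with no overlap (1.50 ± 0.56, adjusted p = 0.138, 4.58% called). With parts of 1 rat counted as separate samples, which are not independent animals, it was 1.45 and was called (limma adjusted p = 0.0488). In their CD45+ sorts it was at 244, 199 and 211 and at 592, 563, 873 and 223 (1.21 ± 0.40, adjusted p = 0.0819, 5.58% called), where DESeq2 made a call (adjusted p = 0.00854). Limma called it in 1 of 7 fits with 1 rat left out, the fit without E2 rat 7 (1.60, adjusted p = 0.0294, against up to 0.234). It also did so with parts of 1 rat as separate samples (1.29, adjusted p = 0.027), which again are not independent animals. Under E2, CD45+ sorts of tumor-free TGFBRi rats were above those of vehicle rats by 0.83 (adjusted p = 0.793, 0% called). Luminal TNFRSF11B ranged from 0 to 299 in the vehicle rats and showed no order.

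After NMU luminal TNFRSF11A was at 228, 332 and 1757 in vehicle, 1540, 1568 and 1820 in tumor-free TGFBRi and 2703, 3944 and 1779 in tumor-bearing TGFBRi luminal sorts. The differences from vehicle were 1.68 ± 0.59 (adjusted p = 0.149, 0.948% of genes called) and 2.38 ± 0.59 (adjusted p = 0.0827, 0.212% called). The median gene moved by -0.32 and -0.26. Without the vehicle sample at 1757 they were 2.57 and 3.27 (limma adjusted p = 0.000614 and 0.000226). This was the only call among 6 fits with 1 rat left out for each difference. Values over these fits went down to 1.10 and 1.80, with adjusted p up to 0.483 and 0.431. Luminal epithelial marker sums were 16172 to 49542 RPM in the vehicle sorts, 42235 to 51226 in tumor-free and 31368 to 42703 in tumor-bearing TGFBRi sorts, and their part in the difference was not tested. The comparison shares its vehicle rats between both TGFBRi groups.

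EPCAM+ sorts of NMU tumors held little RANK and much OPG RNA. In EPCAM+ tumor cells of vehicle rats TNFRSF11A was at 8.54, 11.1 and 16.7 CPM, against 128 to 225 in basal sorts of the glands of tumor-bearing vehicle rats. The tumor minus basal difference was -3.82 ± 0.62 in vehicle and -4.62 in TGFBRi rats, both called by limma (15.1% and 14.9% of genes called). Against luminal sorts it was -1.34 in vehicle rats (adjusted p = 0.119, 23% called), where edgeR and DESeq2 made calls, and -4.60 in TGFBRi rats (14.6% called). Over the alternatives tried the vehicle difference from luminal sorts ran from -1.98 to -0.16. The luminal vehicle sorts were at 12.5, 18.5 and 111 CPM. Basal marker sums were 799 to 3715 RPM in the EPCAM+ tumor sorts and 26093 to 38564 in the gland basal sorts of tumor-bearing rats. Fibroblast sums of the tumor sorts were 9730 to 78038 RPM and luminal epithelial sums 2412 to 15432. The part of these markers in the TNFRSF11A differences was not tested.

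TNFRSF11B was at 36.5, 78.7 and 117 CPM in EPCAM+ tumor cells of vehicle rats and at 0.327 to 1.75 CPM in the luminal sorts of the glands. The difference from luminal cells was 6.34 ± 1.42 in vehicle (adjusted p = 0.00115) and 6.76 in TGFBRi rats (adjusted p = 0.00119), both called. The TGFBRi difference was 4.73 without rat 5 and 8.37 without rat 6 of the 6 tumor-bearing rats, and was called in both. Against basal sorts it was 2.59 and 2.95 and was not called by limma or edgeR, while DESeq2 called the TGFBRi difference (adjusted p = 0.0314). The tumor sample with the lowest fibroblast marker sum (9730 RPM) held 60.5 RPM of TNFRSF11B and the one with the highest (78038) held 137, and the part of fibroblast RNA was not tested. CD45+ cells of tumors were below CD45+ cells of glands for TNFRSF11A by -1.16 in vehicle (20.3% of genes called; not called for this gene) and by -4.34 in TGFBRi rats (35.4%; called). For TNFRSF11B the same differences were -6.72, which was called, and -3.03, which was not. Other cells' markers differed too. Basal marker sums were 593 to 952 RPM in CD45+ sorts of vehicle glands, 1642 to 20675 in those of tumor-bearing TGFBRi rats and 69.4 to 199 in tumors, and fibroblast sums were 6960 to 27573 in glands and 220 to 2385 in tumors. Their part in these differences was not tested. Between TGFBRi and vehicle tumors EPCAM+ cells differed by -0.76 for TNFRSF11A and 0.46 for TNFRSF11B, neither called.

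**Figure D5:**
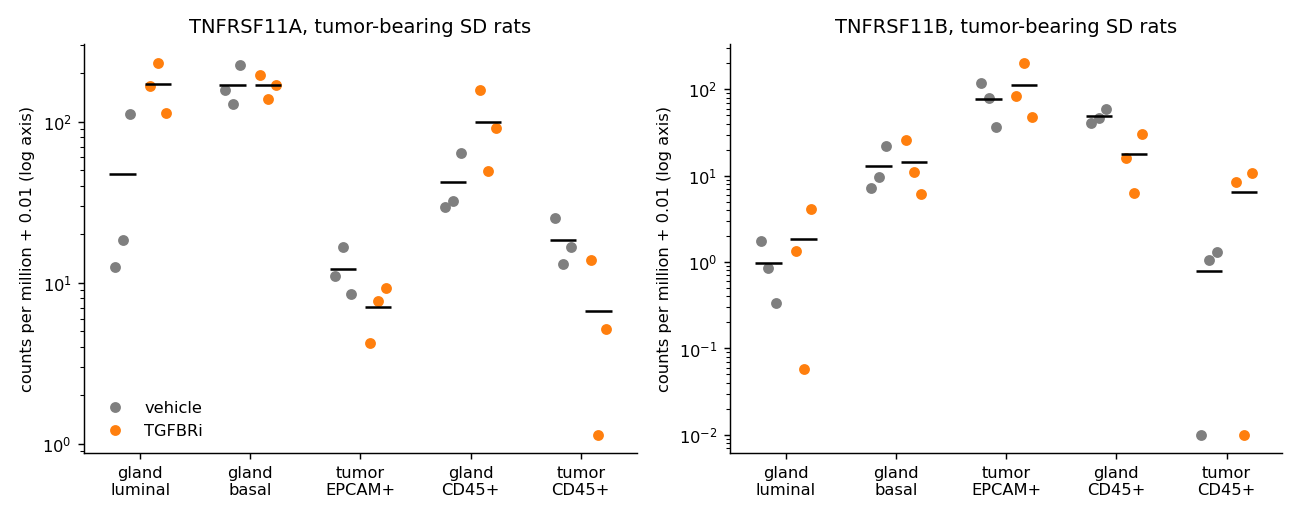
CPM of TNFRSF11A (left) and TNFRSF11B (right) in gland and tumor sorts of tumor-bearing SD rats after NMU, 1 point per rat, by treatment, on a log axis with 0.01 added, and black bars are means. EPCAM+ tumor cells of vehicle rats lie at 8.54 to 16.7 CPM for TNFRSF11A and 36.5 to 117 for TNFRSF11B.

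The rest of the pathway, a list of 35 genes in roles around the ligand and receptor, was read beside the same comparisons. Between basal and luminal sorts of young ACI vehicle rats 4 of 32 measured genes were higher and 15 lower in basal cells, 59.4% against 35.6% of all genes. By size of change the called genes named were ELF5, a regulator of alveolar fate downstream of RANK (-5.11), PRLR, the prolactin receptor (-4.90), ESR1, the estrogen receptor (-4.42), and PGR, the progesterone receptor (-2.62). TNFSF10, the ligand TRAIL that OPG also binds, was lower by -4.53, and CALCA, calcitonin, was higher by 3.74. In young SD rats 5 were higher and 10 lower, 46.9% of the list and 42.7% of all genes, with ELF5 at -5.50 and WNT4, a paracrine factor induced beside RANKL, at -3.97. LGR4, a second receptor of RANKL, was higher in SD basal cells by 2.98.

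In young ACI rats 12 of 32 genes were higher and 9 lower in CD45+ than in luminal sorts, 65.6% of the list and 50.5% of all genes. TRAF1, an adaptor of activated immune cells, was higher by 6.76 and NFATC1, the factor through which RANK drives osteoclast fate, by 3.63, while PGR was lower by -4.26.

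With treatment the list moved in few bulk comparisons. In young ACI basal sorts at day 0 TRAF1 (4.44) and NFATC1 (1.19) rose, and in luminal sorts NFATC1 (1.69) rose. Leukocyte marker sums were 5.54 to 24.4 RPM in vehicle and 32.2 to 68.2 in TGFBRi basal sorts, and 8.98 to 18.9 and 24.1 to 37.9 in luminal sorts. Basal marker sums of the basal sorts were 10264 to 14087 in vehicle and 3299 to 7588 in TGFBRi rats. The part of either in these changes was not tested. These were 6.25% and 3.125% of the list, beside 3.34% and 1.01% of all genes. In adult virgin basal sorts PGR fell by 5.84, STAT5B by 1.82 and STAT5A, like it a transducer of prolactin signals, by 1.24. That was 9.38% of the list and 8.73% of all genes, a share near the background. Virgin vehicle rat 1 held 16007 RPM of luminal epithelium markers and 195 of leukocyte markers in its basal sort, against 4244 to 4695 and 2.86 to 5.85 in the other vehicle rats. Basal marker sums were 10132 in that rat and 22490 to 23145 in the other vehicle rats, and 9780 to 12208 in 3 TGFBRi rats and 22182 in the fourth. Without vehicle rat 1 PGR (adjusted p = 0.0199) and STAT5B (0.00631) were still called lower, while STAT5A at -0.97 lost its call (0.0514). PGR was not called by edgeR (adjusted p = 0.105). The part of the basal markers was not tested. In TGFBRi rats parous basal sorts were above virgin ones for PGR (4.82), STAT5B (1.61) and LGR4 (0.88) and below for TRAF2 (-0.74), 12.5% of the list and 12.1% of all genes. These 2 comparisons share the virgin TGFBRi rats. In luminal sorts of vehicle rats WNT4 (-2.78) and PRLR (-1.78) were lower with E2 and tumors than with the empty pellet, 6.25% of the list and 1.48% of all genes. In tumor-free TGFBRi rats 6 of 32 genes were called (18.8% against 4.58% of all genes), with RSPO1, a WNT enhancer and LGR4 ligand, at 6.08, ELF5 at 2.65 and WNT4 at -2.46.

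In the epithelial classes of whole glands the list moved in both directions beside RANK. In basal-like cells 8 of 35 genes were higher and 10 lower after TGFBRi (51.4% against 43.6% of all genes), with CALCA at -2.17, AREG, an epidermal growth factor receptor ligand, at -1.55, TRAF5 at 1.41 and TRAF1 at -1.35. In luminal progenitor-like cells 8 were higher and 5 lower (37.1% against 27.7%), with TNFSF10 at 1.82, TAB1 at 1.74, STAT5A at 1.62 and LGR4 at 1.38. In mature luminal-like cells 4 were higher and 10 lower (40% against 29.2%), with PGR at -1.19, BIRC3 at -1.14 and NFKB2, the precursor of the noncanonical NF-kB subunit, at -1.03, while WNT4 was at 1.11 and ESR1 at 0.77. Shares of the same 3 classes, in the same order, differed in sorted cells. In sorted SD cells 22.9%, 18.2% and 11.4% of the list were called, beside 29.9%, 17.9% and 27.5% of all genes. In sorted ACI cells the shares were 41.2%, 38.2% and 21.2%, beside 37%, 30.8% and 26%. In EPCAM+ tumor cells of vehicle rats ELF5 (-3.07), TRAF2 (-1.82) and NFKBIA (-1.60) were below luminal sorts, 3 of 30 genes or 10% of the list, beside 23% of all genes called. In TGFBRi rats 1 gene was higher and 7 lower, 26.7% of the list and 14.6% of all genes, with ELF5 at -4.15, TRAF1 at 3.74 and BIRC3, an inhibitor of apoptosis, at -2.27. The EPCAM+ tumor sorts of TGFBRi rats held leukocyte marker sums of 115 to 682 RPM. Their fibroblast sums were 20027 to 67656 and their luminal epithelial sums 2412 to 5777. The part of these markers in the changes was not tested. In NK-like cells of whole glands 6 of 28 genes were higher and 0 lower (21.4% against 2.88%), with NFATC1 at 1.24 and RELB at 1.16. In neutrophil-like cells 6 of 30 were higher and 0 lower (20% against 8.16%), with TRAF3 at 1.21 and REL, like RELB a subunit of NF-kB, at 1.09. The share was 0% in T cell-like (against 8.06%), 0% in Schwann-like (10.8%) and 2.94% in macrophage-like cells (4.11%). Other immune and stromal classes lay on either side of the share of all genes.

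The genes most like each receptor across the 59 bulk groups were found from group means of log2 RPM. For TNFRSF11A they were PLEKHB1 (Pearson r = 0.872), THBS1 (0.866), ADGRG1 (0.856), HR and RTN1 (0.853 each). Within the 15 basal groups, the fraction where it was highest, they were DPEP1 (0.950), ARHGEF25 (0.946), PBXIP1 (0.945), LIMS2 (0.940) and EPHX1 (0.926). For TNFRSF11B they were RECK (0.921), MAB21L1 (0.915), LRP1 (0.906), PRSS23 (0.905) and PCDH18 (0.9002). Its mean was highest in the 2 EPCAM+ tumor groups (127 RPM), too few for a correlation. Groups share data sets, depth and sort, so these values are descriptions only.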

How the data were processed

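RNA of sorted rat mammary cells was made into libraries with a low-input kit and sequenced with single or paired ends, and the authors aligned it with STAR 2.5.1b to rn6, counted reads per gene with HTSeq without strand and scaled them with DESeq2 1.30.1. The deposited bulk signal is these normalized counts. Each sample's smallest step gave back whole reads for 100% of 2526550 values above 0 (tolerance 0.001). In 85 samples, entries that name no gene held 23.1 to 42.5% of reads and were left out. The single-cell tables hold raw UMI counts deposited by the authors after Cell Ranger 4.0.0 (3′) or 7.0.0 (5′, whole gland) and their own cell filters.

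Bulk groups were compared with limma 3.58.1 on log2(normalized count + 1), for genes whose values summed to at least 10, at an adjusted p of 0.05 (Benjamini-Hochberg over all genes). Cell fractions were compared with limma on log2 CPM of the recovered reads (TMM, prior count 1). UMIs were summed per rat and sort or class and tested with edgeR 4.0.16 (quasi-likelihood, at least 10 cells per rat, genes with at least 10 UMIs) at an adjusted p of 0.1. DESeq2 1.42.0 was an alternative. Cells were clustered with scanpy 1.11.5 (Leiden, resolution 0.8), and a cluster was named where at least 3 markers of a fixed list were raised. The thresholds of that naming were adjusted after the clusters were seen. The 6% of cells with the highest doublet scores were left out as an alternative. Scripts were tested on simulated data.

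The members, the pathway list and the marker lists were chosen with earlier results of these data known. Per comparison at most 6 called pathway genes with the largest change are named, and for each member the 5 genes with the highest correlation. Sorts of 1 rat share the animal. Their deviations from the group means correlated with a median of 0.427 between basal and luminal sorts of young ACI rats and of -0.015 to 0.12 elsewhere. The labels do not say whether rats were handled in batches, so p-values measure the spread between these rats. A rat labelled for 2 days was taken as day 7, and 4 parts of 1 rat were averaged.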

Additional observations from a re-analysis of the deposited data

Results flagged for a closer look

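The effect of TGFBRi on TNFRSF11A differed between whole gland and sorted SD cells by 1.95 in basal-like, 2.22 in luminal progenitor-like and 2.08 in mature luminal-like cells on the log2 scale (edgeR, adjusted p = 0.00625, 0.000561 and 0.0565). Of 34 such differences between effects 3 were called, and all 3 were in comparisons added after the data were seen. Rats, cell preparation and library chemistry differ between these sets and cannot be told apart. The sorted luminal progenitor-like class held 0.389 to 12.2% of luminal sort cells in 4 of the 6 TGFBRi rats, against 68.4 to 78.9% in vehicle rats. Unnamed sorted clusters with the milk protein gene CSN2 among their leading genes were left out of that class.

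Single samples stood apart from their group by Dixon's test in 13 of 92 groups of 4 to 10 samples, where chance gives about 1 in 20. In 3 of the 13 the other values were all 0, so the test's ratio is 1 whatever the highest value is. For TNFRSF11A in whole glands TGFBRi rat 3 was lowest in both luminal progenitor-like cells (0.380 UMIs per 10000, nearest rat 0.682) and mature luminal-like cells (0.0753, nearest 0.220). A TGFBRi rat was highest in Schwann-like cells (0.181, nearest 0.0257) and another value in NK-like cells (0.0341, the others at 0). In sorted SD basal cells a TGFBRi rat held 1.20 UMIs per 10000 of TNFRSF11A (nearest 0.584). In bulk, a CD45+ sample of parous TGFBRi rats held 1585 normalized counts of TNFRSF11A (nearest 764).

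For TNFRSF11B the highest TGFBRi rat was at 0.344 UMIs per 10000 in sorted SD basal cells (nearest 0.207), 0.0130 in luminal sorts (nearest 0.00532), 0.00450 in SD luminal progenitor-like cells and 0.0205 in whole gland NK-like cells (the others at 0 in both). In bulk it was at 7.14 normalized counts in a young SD vehicle luminal sort (nearest 0.673), 431 in a young SD TGFBRi basal sort (nearest 262) and 1353 in a virgin vehicle CD45+ sort of adult ACI rats (nearest 232).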

How the results depend on the processing

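For the receptor and decoy 210 comparisons were recomputed in 2909 ways: 2837 kept their side of the threshold, 72 did not (50 of them with 1 rat left out), and no called value changed sign. Against luminal sorts, TNFRSF11A of EPCAM+ tumor cells of vehicle rats was called by edgeR (-1.98, adjusted p = 0.0196) and DESeq2 (-1.90, adjusted p = 0.0086). With only the compared groups in the fit, TNFRSF11A of young ACI luminal sorts at day 0 stayed at -0.78 and was called. With total UMIs as the scale TNFRSF11A of ACI basal sorts was called at -0.34. With 1 rat left out, TNFRSF11B ran from -0.84 to -0.45 in sorted ACI and from -0.85 to -0.48 in sorted SD basal cells, TNFRSF11A from -0.71 to -0.15 in sorted SD basal cells, and TNFRSF11B from 1.44 to 2.47 in young ACI luminal sorts at day 0. The cause was not tested. With the rat as a replicate block, comparisons of sorts from the same animals kept their side of the threshold in 38 of 38 fits. In young ACI rats the blocked basal minus luminal difference of TNFRSF11B was 5.29 and was called. For treatment, parity, day and E2, rats share only a replicate number. No paired analysis was possible because nothing in the labels pairs these rats. Low counts limit TNFRSF11B in luminal cells.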
